A study of Mus musculus with 24 samples.

Results

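The MHC class I genes described here are the heavy chain genes H2-D1, H2-K1 and H2-T23, the light chain gene B2m, the peptide transporter genes Tap1 and Tap2, and the tapasin gene Tapbp. The set was chosen from measured values: in the comparison of R2b with con pools at E10.25+24h, H2-D1 and H2-K1 had rank 1 and 2 by p among 15203 genes tested, and the other members were added for their place in the pathway. There B2m had rank 677, H2-T23 rank 3916, Tapbp rank 6862 and Tap1 rank 12312. The values of that exposure are therefore given without a test. Of the 7 genes, 6 were measured among 15736 genes, and Tap2 was not analysed here. The question was whether the class I genes followed the genotype, the litter or the strain background, and the labels name no strain.

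RNA came from mouse otocyst epithelium, the wall of the vesicle from which the inner ear grows. All embryos carried the doxycycline-dependent activator as Rosa26rtTA/+, and all mothers received doxycycline, by injection at 1.5 mg/kg and then in chow at 200 mg/kg. Embryos labelled con carried nothing further, whereas those labelled R2b also carried Tg(tetO-s(dn)Fgfr2b)/+, a transgene for a soluble dominant-negative FGFR2b, the epithelial splice form of an FGF receptor. The exposure called E9.75+12h began at stage E9.75 and lasted 12 hours, whereas E9.25+24h and E10.25+24h began at E9.25 and E10.25 and lasted 24 hours. Tissue was thus taken at E10.25 in the first 2 cases and at E11.25 in the last. A litter is 1 pregnant female, whose embryos were pooled into 1 con and 1 R2b sample. Litters 1 to 3 were analysed at E9.75+12h, and litters 1 to 4 at each of the 24-hour exposures, which gave 11 litters and 22 libraries. A litter number names a litter within its exposure only. Values are pools of embryos, so the spread between embryos of a pool is not seen.

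Library totals were 18.7 to 28.2 M counts. All 10 otic epithelium markers (among them Pax2, Oc90 and Epcam) had counts in every group, with a summed level of 2250 to 7654 CPM (counts scaled to the size of the library). The 11 immune cell markers with a row summed to 4.13 to 31.9 CPM, and no gene of the list was at 0 throughout a group. Reads on Fgfr2, together with reads on the immunoglobulin gene Ighg1, served as the check of the transgene. Ighg1 was at 0.0481 to 1.99 CPM in the con pools of E9.75+12h and E9.25+24h, against at least 1020 CPM in their R2b pools. At E10.25+24h the check went against the labels of litter 1. The library labelled con had 679 CPM of Ighg1 and 879 CPM of Fgfr2, and the library labelled R2b had 54.7 and 313 CPM. The con library of litter 3 had 201 CPM of Ighg1, against 1.42 and 0.736 CPM in those of litters 2 and 4. Its Fgfr2 level was 404 CPM, against 231 and 208 CPM. All libraries were kept under their labels, and values without litter 1 are given where it matters. Those values still hold the con library of litter 3 as con.

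MHC class I molecules show peptides made inside a cell to CD8 T cells and natural killer cells. A heavy chain pairs with beta-2 microglobulin in the endoplasmic reticulum, the TAP transporter brings peptides in from the cytosol, and tapasin holds the empty molecule at the transporter until a peptide is bound. H2-K1 and H2-D1 encode classical heavy chains, whose alleles vary between mouse strains, while H2-T23 encodes Qa-1, a non-classical heavy chain. On GRCm38 (GENCODE M21) Tapbp lies at chr17:33915899-33929292, H2-K1 at chr17:33996017-34000347, Tap1 at chr17:34187553-34197225, H2-D1 at chr17:35262730-35267499 and H2-T23 at chr17:36029773-36032855, whereas B2m lies apart at chr2:122147686-122153083. Expression in early embryos is generally low, and interferon and NF-kB raise it through elements upstream of the heavy chain genes.

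The upstream sequences show how alike the paired heavy chain genes are and set beside those of the light chain and tapasin genes. They are the 250 bases before the RefSeq transcript start on GRCm38.p6, printed 5′ to 3′ on the gene's strand: H2-D1 at chr17:35262844-35263093 (plus strand), H2-K1 at chr17:34000348-34000597 (minus strand, first start), B2m at chr2:122147437-122147686 (plus strand) and Tapbp at chr17:33919228-33919477 (plus strand). Capitals mark matches, on either strand, to an NF-kB site motif (kB) and to the core of an interferon-stimulated response element (ISRE). The kB motif was searched strictly (GGG, a pair of free bases, then TTCCC) and in a wider form (GGG, a purine, a pair of free bases, a pair of pyrimidines, then CC). The ISRE core was searched as GAANNGAAA and in another form with GAAA on each side of a pair of free bases. The wider kB and the other ISRE form were chosen after the windows had been seen.
H2-D1: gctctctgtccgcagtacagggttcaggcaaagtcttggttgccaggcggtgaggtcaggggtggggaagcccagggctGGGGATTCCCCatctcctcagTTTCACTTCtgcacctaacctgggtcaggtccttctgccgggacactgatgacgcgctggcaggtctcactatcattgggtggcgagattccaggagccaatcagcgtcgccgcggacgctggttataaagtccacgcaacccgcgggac
H2-K1: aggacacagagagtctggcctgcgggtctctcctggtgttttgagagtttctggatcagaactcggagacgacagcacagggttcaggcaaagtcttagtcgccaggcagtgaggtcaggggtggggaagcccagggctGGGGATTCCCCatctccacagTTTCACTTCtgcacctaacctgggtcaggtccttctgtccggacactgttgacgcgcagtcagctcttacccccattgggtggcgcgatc
B2m: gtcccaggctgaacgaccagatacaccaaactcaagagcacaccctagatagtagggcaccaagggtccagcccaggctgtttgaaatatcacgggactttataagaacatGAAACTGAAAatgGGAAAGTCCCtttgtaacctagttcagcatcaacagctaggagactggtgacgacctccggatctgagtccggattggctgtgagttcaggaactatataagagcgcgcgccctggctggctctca
Tapbp: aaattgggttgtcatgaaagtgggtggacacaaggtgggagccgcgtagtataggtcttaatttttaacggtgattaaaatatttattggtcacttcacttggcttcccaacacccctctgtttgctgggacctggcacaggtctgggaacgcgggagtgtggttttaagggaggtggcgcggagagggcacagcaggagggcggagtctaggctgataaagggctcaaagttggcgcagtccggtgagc
H2-D1 held the strict kB match at 171 to 162 bases and the ISRE match at 150 to 142 bases before the start. In H2-K1 the same letters stood at 111 to 102 and 90 to 82 bases before the first RefSeq start. Lined up at the kB match without gaps, 166 of 190 bases were identical (87.4%). In both genes the wider kB form also matched 1 base further on, overlapping the strict match, and neither kB form overlapped the ISRE match. The B2m window held a wider kB match at 126 to 117 bases and an ISRE match of the other form at 139 to 130 bases before the start. H2-T23 held an ISRE match of the other form at 124 to 115 bases. No match to any of these 4 patterns was found in the windows of Tapbp and Tap1. Of 27025 RefSeq promoter windows of this length, 1.44% held the strict and 7.01% the wider kB motif, and 6.34% held GAANNGAAA and 3.04% the other ISRE form. These matches describe letters in a window and say nothing of binding.

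In the R2b pools, H2-D1 and H2-K1 were higher than in the con pool of the same litter in most litters. Neither passed the main edgeR test, which had no litter block, at the 2 exposures where a test is given. With the litter as a block H2-K1 passed at E9.25+24h and H2-D1 did not. At E9.75+12h the con pools of litters 1, 2 and 3 had 10.1, 13.5 and 9.55 CPM of H2-D1, and the R2b pools 14.4, 14.6 and 14.3 CPM. Every R2b pool was above every con pool, as for 18.2% of all genes tested at that exposure. The log2 fold change was 0.41 (SE 0.17, 1.33-fold), with a Benjamini-Hochberg adjusted p over all genes (FDR) of 0.11 in edgeR. Without litter 2 it was 0.56 with an edgeR FDR of 0.040. It was 0.34 without litter 1 and 0.31 without litter 3, with edgeR FDRs of 0.47 and 0.38. At E9.25+24h the con pools of litters 1 to 4 had 19.3, 17.1, 15.6 and 19.1 CPM and the R2b pools 25.8, 23.3, 17.2 and 18.2 CPM. The groups overlapped, with litters 1 and 2 setting the R2b pools apart and litter 4 slightly reversed, and the edgeR FDR was 0.25 (log2 fold change 0.26, SE 0.14). With the litter as a block the edgeR FDR was 0.052, and 0.0070 when litter 4 was also left out. Leaving out litter 1, 2 or 3 instead gave 0.23, 0.23 and 0.073. At E10.25+24h, where H2-D1 was chosen for it, con pools had 19.5, 18.3, 18.1 and 20.6 CPM and R2b pools 24.1, 25.7, 23.4 and 27.9 CPM, a log2 difference of 0.41 (SE 0.085).

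H2-K1 showed a wider spread between litters. At E9.75+12h the con pools had 8.78, 12.5 and 24.2 CPM and the R2b pools 22.5, 22.3 and 15.6 CPM. Litters 1 and 2 were higher in R2b and litter 3 was lower, its con pool being the highest of the 6. The log2 fold change was 0.44 (SE 0.30), with an edgeR FDR of 0.32. Without litter 1 the log2 fold change was 0.07 with an edgeR FDR of 0.93, and without litter 2 it was 0.23 with an FDR of 0.69. Without litter 3 it was 1.09 with an FDR of 0.0048, and without its con library alone 0.93 with an FDR of 0.018. That con library also had the highest summed immune (17 CPM) and endothelial (74.9 CPM) marker levels of the exposure, and the part of these cells in its H2-K1 level was not tested. At E9.25+24h the con pools had 15.7, 11.5, 19.0 and 12.2 CPM and the R2b pools 27.4, 21.8, 21.4 and 17.7 CPM. Within each of the 4 litters the R2b pool was higher, although the con pool of litter 3 exceeded the R2b pool of litter 4. The log2 fold change was 0.60 (SE 0.19, 1.52-fold) with an edgeR FDR of 0.058, just above the threshold of 0.05. With the litter as a block the FDR was 0.0017, and DESeq2 gave an adjusted p of 0.015. At E10.25+24h, the exposure of the choice, con pools had 13.4, 13.3, 14.7 and 17.8 CPM and R2b pools 19.5, 21.7, 19.7 and 19.2 CPM, a log2 difference of 0.44 (SE 0.11).

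H2-T23, whose product Qa-1 is read by natural killer cells, passed no test between con and R2b. It was low, with 9 to 122 counts per library. At E9.75+12h con pools had 0.784, 0.911 and 1.21 CPM and R2b pools 1.78, 1.24 and 0.581 CPM, with a log2 fold change of 0.35 (SE 0.44) and an edgeR FDR of 0.60. That difference rested on litter 1: it was -0.18 without the litter (-0.25 with the litter block) and -0.04 without its R2b library alone. At E9.25+24h con pools had 1.35, 1.74, 0.639 and 0.515 CPM and R2b pools 1.18, 0.728, 0.537 and 0.429 CPM. Here R2b was below con in all 4 litters, at a log2 fold change of -0.55 (SE 0.46) and an edgeR FDR of 0.45. At E10.25+24h con pools had 4.01, 3.66, 2.05 and 2.67 CPM and R2b pools 4.43, 4.03, 2.90 and 3.31 CPM. Both pools of a litter kept the same order there: litter 1 was highest, then 2, 4 and 3.

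B2m, which encodes the light chain shared by all these heavy chains, rose in R2b pools at E9.25+24h. Con pools had 30.8, 31.4, 27.0 and 36.3 CPM, a mean of 31.4 ± 3.81 (SD, n = 4), and R2b pools had 55.1, 57.7, 51.0 and 50.5 CPM, a mean of 53.6 ± 3.44 (SD, n = 4). The groups did not overlap, and the R2b pool was higher in every litter, by 0.78 on the log2 scale (SE 0.090, 1.72-fold) with an edgeR FDR of 0.0016. At E9.75+12h con pools had 96.4, 66.5 and 98.1 CPM and R2b pools 96.4, 141 and 117 CPM. Litter 2 carried most of that difference, and the pools of litter 1 were level. The log2 fold change was 0.46 (SE 0.17) with an edgeR FDR of 0.070, and 0.15 without litter 2. DESeq2 gave an adjusted p of 0.029. At E10.25+24h con pools had 51.5, 38.3, 36.6 and 32.4 CPM and R2b pools 40.0, 59.8, 44.3 and 49.3 CPM, a log2 difference of 0.29 (SE 0.16) that was 0.53 without litter 1.

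Tapbp, the gene of tapasin, was the member that passed the test at both exposures ending at E10.25. At E9.75+12h con pools had 18.9, 17.9 and 15.3 CPM, a mean of 17.4 ± 1.86 (SD, n = 3), and R2b pools had 27.1, 25.7 and 26.3 CPM, a mean of 26.4 ± 0.733 (SD, n = 3). The R2b pools lay close together and clear of every con pool. The log2 fold change was 0.63 (SE 0.13, 1.54-fold) with an edgeR FDR of 0.0082, which was 0.034 with the litter as a block. The call was lost with 2 litters: the FDR was 0.099 without litter 1 and 0.062 without litter 3. At E9.25+24h con pools had 18.2, 17.5, 14.7 and 18.9 CPM and R2b pools 33.6, 33.0, 30.6 and 27.9 CPM. The lowest R2b pool was well above the highest con pool, and the log2 fold change was 0.86 (SE 0.098, 1.81-fold) with an edgeR FDR of 0.0016. Tapbp and B2m at E9.25+24h stayed under an FDR of 0.05 in each of the 21 alternatives run. At E10.25+24h con pools had 52.2, 23.3, 25.9 and 24.5 CPM and R2b pools 30.8, 41.2, 34.4 and 35.5 CPM. The library labelled con in litter 1 was the highest of the 8 and the library labelled R2b in that litter the lowest R2b value. The log2 difference was 0.18 (SE 0.25) with all litters and 0.61 without litter 1.

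Tap1, which encodes a subunit of the peptide transporter, had 29 to 110 counts per library. At E9.75+12h con pools had 1.57, 1.88 and 2.43 CPM and R2b pools 3.18, 2.97 and 3.43 CPM. All R2b pools were above all con pools, at a log2 fold change of 0.73 (SE 0.27, 1.66-fold) and an edgeR FDR of 0.080, which was 0.041 when all libraries were fitted together. At E9.25+24h con pools had 1.68, 2.73, 1.54 and 1.59 CPM and R2b pools 2.50, 2.57, 2.51 and 2.29 CPM. The con pool of litter 2 stood apart from the other con pools and above every R2b pool, and the log2 fold change was 0.39 (SE 0.22) with an edgeR FDR of 0.25. At E10.25+24h con pools had 2.59, 2.80, 3.94 and 2.90 CPM and R2b pools 4.00, 2.93, 2.63 and 2.19 CPM, with no common direction over the litters. The log2 difference was -0.05 (SE 0.23) with all litters and -0.30 without litter 1. Tap1 shares exon bases with Psmb9 on the opposite strand, and Psmb9 had 1 to 11 counts per library. Tapbp shares exon bases with Zbtb22 on the same strand.

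**Figure D1:**
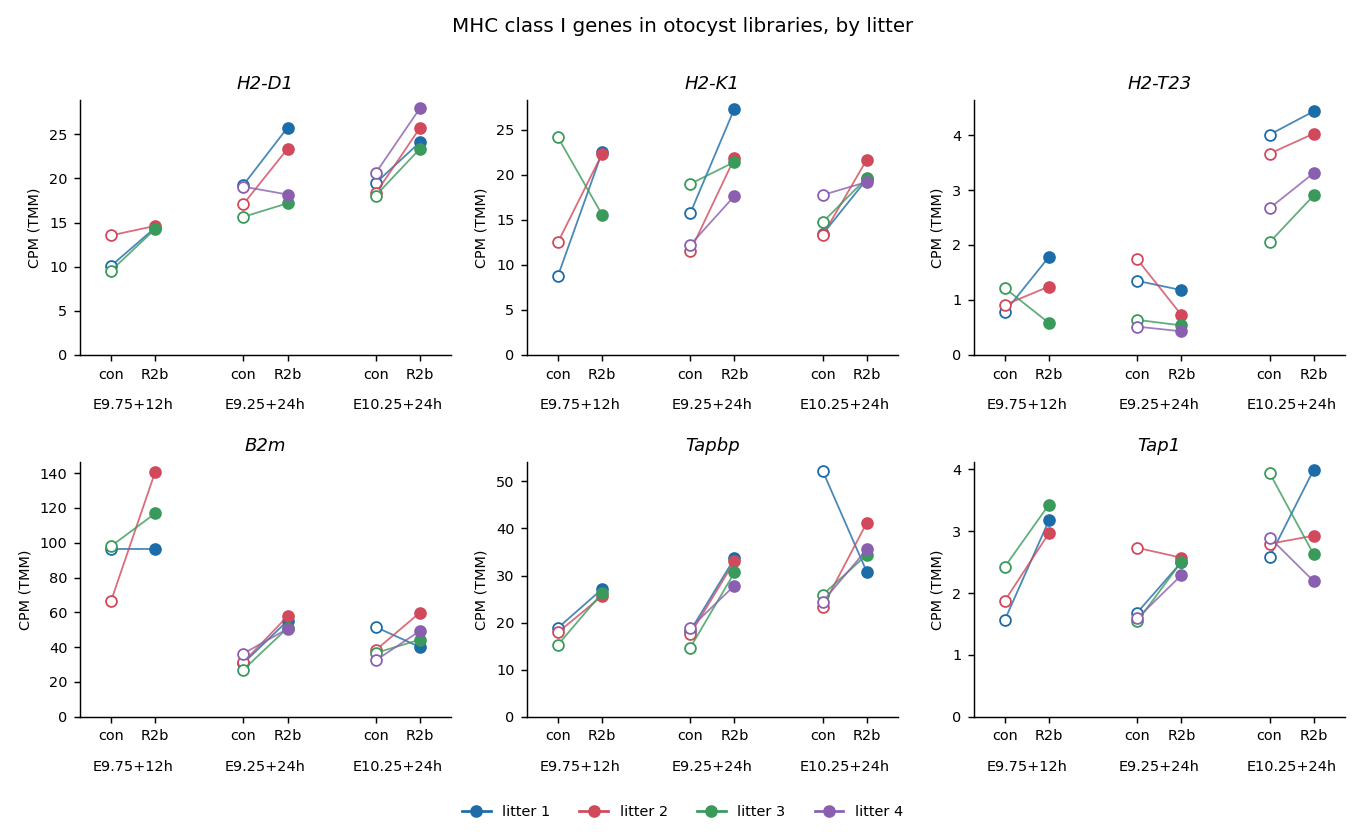
Levels of the 6 measured MHC class I genes in 22 otocyst libraries, as CPM on the vertical axis, with open circles for con and filled circles for R2b pools and a line joining the pools of a litter. Tapbp rises in every litter of the first 2 exposures, B2m in every litter of E9.25+24h, and litter 1 of E10.25+24h falls for both.

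Counted over the members, 1 of 6 (Tapbp) rose at E9.75+12h and 0 fell, where 20.0% of all genes were called, 10.20% as higher and 9.78% as lower. At E9.25+24h 2 of 6 (Tapbp and B2m) rose and 0 fell, where 15.6% were called, 9.09% as higher and 6.5% as lower. With the litter as a block 1 member was called in the shorter of these exposures (11.4% of all genes) and 3 in the longer (39.4%). The median log2 fold change of the members was 0.45 and 0.49 in that order, against 0.01 and -0.01 over all tested genes. The R2b pool was above the con pool in every litter for 4 of 6 members after the 12-hour exposure (24.5% of all genes) and for 3 of 6 at E9.25+24h (25.9%). The 4 include B2m, whose pools in litter 1 were level (96.4 CPM in both). Every R2b library exceeded every con library for 3 of 6 (18.2%) and 2 of 6 (12.1%). For E10.25+24h the corresponding counts, fixed in part by the choice of the set, were 3 of 6 (3.59%) and 2 of 6 (0.474%). Without litter 1, left out here after the data had been seen, they were 5 of 6 (22%) and 4 of 6 (10.7%), with B2m and Tapbp added to both and shares of all genes that were larger too. The test of the difference between the first 2 exposures called no member: the differences ranged from -0.88 for H2-T23 to 0.33 for B2m, with 0 of 6 at an FDR under 0.05 in edgeR and 0 at an unadjusted p under 0.05. Over all genes that test called 0.0% in edgeR (1908 at an unadjusted p under 0.05) and 99 genes in DESeq2. At E10.25+24h 0.0% of all genes were called by edgeR or DESeq2, with 175 genes at an unadjusted p under 0.05 in edgeR. Without litter 1 edgeR again called 0, but 2430 genes had an unadjusted p under 0.05.

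The order of the levels, set per kilobase of exon so that genes can be compared, had B2m at the top in every group. It stood at 36.5 ± 4.43 CPM per kilobase (SD, n = 4) in con pools of E9.25+24h. H2-D1 (6.89 ± 0.667), H2-K1 (4.98 ± 1.17) and Tapbp (4.78 ± 0.510) followed, of which H2-K1 and Tapbp lay within their spread. H2-T23 (0.367 ± 0.202) and Tap1 (0.345 ± 0.103) were the lowest and overlapped. Among con pools, B2m was lower at E9.25+24h than at E9.75+12h with an edgeR FDR of 8.92e-07 (log2 fold change -1.47, SE 0.17), and H2-D1 was higher with an edgeR FDR of 5.72e-04 (0.69, SE 0.14). These were the 2 of 6 members called, where 36.0% of all genes were (20.3% as higher, 15.7% as lower). Both exposures ended at E10.25, but the sample titles number them as different library series and their mitochondrial shares did not overlap (4.00% to 6.69% against 1.53% to 1.70%), so exposure and series cannot be told apart. In pooled tissue, a change in the share of cells of one type and a change of RNA per cell cannot be told apart either.

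In the 7 litters of E9.75+12h and E9.25+24h, which the choice of the set did not use, the R2b pool was higher in 7 for Tapbp and B2m, in 6 for H2-D1, H2-K1 and Tap1, and in 2 for H2-T23. Litter 1 of E9.75+12h was level for B2m (96.4 CPM in both pools). With the 4 litters of E10.25+24h, where all R2b pools of H2-D1 and H2-K1 were higher by the choice itself, H2-D1, H2-K1, B2m and Tapbp had 10 of 11, Tap1 8 and H2-T23 6. The exceptions differed between genes. For Tapbp and B2m the only litter with a lower R2b pool was litter 1 of E10.25+24h, with log2 differences of -0.76 and -0.36. That is the litter whose transgene reads went against the labels, at -1.49 for Fgfr2 and -3.63 for Ighg1. H2-D1 and H2-K1 went with the label in the same litter, at 0.31 and 0.54, as did H2-T23 at 0.14 and Tap1 at 0.61. H2-D1 was lower in R2b in litter 4 of E9.25+24h (-0.07), and H2-K1 in litter 3 of E9.75+12h (-0.63). H2-D1 and H2-K1, whose small p at E10.25+24h led to the choice of the set, were therefore higher in the library labelled R2b that had the fewer transgene reads. Whether the labels of that litter are exchanged was not tested, and the E10.25+24h values are a description only.

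**Figure D2:**
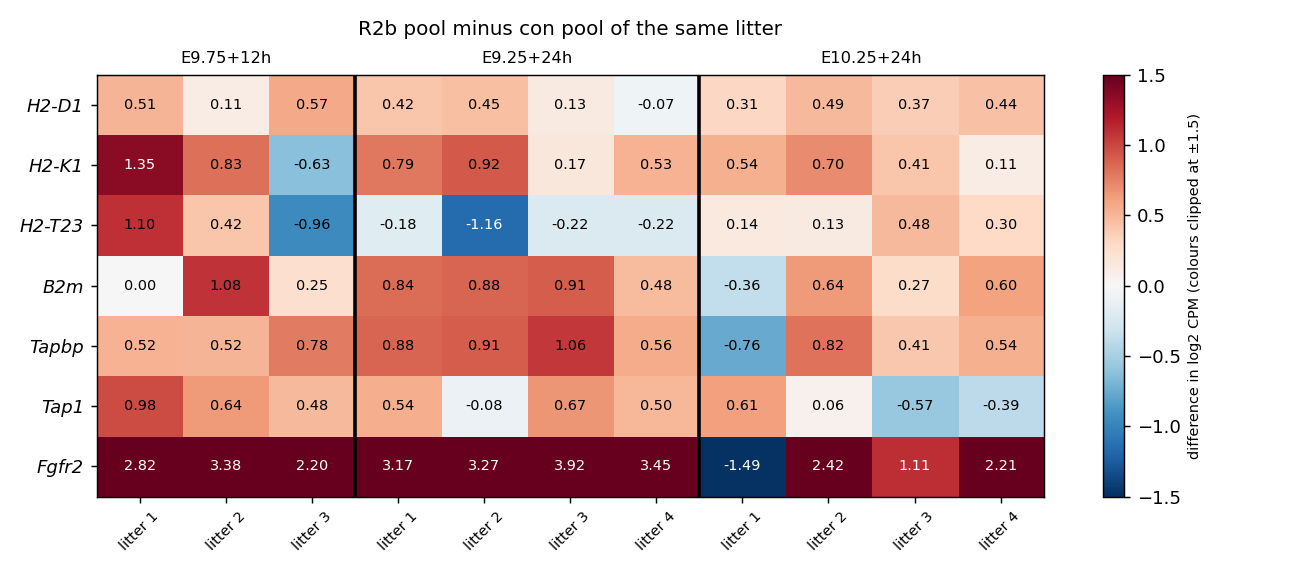
Difference in log2 CPM between the R2b and the con pool of each of 11 litters (columns, by exposure) for the 6 members and for Fgfr2 (rows), with colours limited to ±1.5. In litter 1 of E10.25+24h the values of Fgfr2, Tapbp and B2m are negative, while those of H2-D1, H2-K1, H2-T23 and Tap1 are positive.

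Litters were compared by adding the litter to the genotype in edgeR. At E9.25+24h H2-T23 was the only member called (FDR 0.043), where 27.1% of all genes were called. Its levels were 1.35 and 1.18 CPM in con and R2b of litter 1, 1.74 and 0.728 in litter 2, 0.639 and 0.537 in litter 3, and 0.515 and 0.429 in litter 4. Litters 1 and 2 were above litters 3 and 4 in both pools, but DESeq2, which called 18.7% of all genes, did not call it. H2-K1 (FDR 0.065) and H2-D1 (0.074) came near the threshold in edgeR, whereas B2m (0.30), Tapbp (0.34) and Tap1 (0.42) did not. For B2m and Tapbp the litter means spanned 0.21 and 0.22 log2 CPM at this exposure, less than their mean R2b difference of 0.78 and 0.85. For H2-T23 the litter means spanned 1.27 against a mean difference of -0.44. The same values were 0.44 against 0.23 for H2-D1, 0.50 against 0.60 for H2-K1 and 0.45 against 0.41 for Tap1. At E9.75+12h no member was called and 0.0% of all genes were, with 123 at an unadjusted p under 0.05 in edgeR and 4 called by DESeq2. At E10.25+24h no member was called, where 0.0193% of all genes were called by edgeR and 383 genes by DESeq2.

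Markers of tissue around the epithelium differed between the same litters. At E9.25+24h a litter effect was called by edgeR for 10 of 10 mesenchyme, 12 of 12 endothelium, 9 of 10 blood and 9 of 11 immune markers. Of all genes 27.1% were called. Litter 4 had the highest summed levels, with 1403 (con) and 1297 (R2b) CPM of mesenchyme markers against 99.5 and 118 in litter 3. Not every mesenchyme marker followed the sum. Dcn had 5.58 (con) and 12.7 (R2b) CPM in litter 4 against 18.4 and 37.1 in litter 2. Lum had 22.3 and 29.3 CPM in litter 4 against 38.6 and 71.5 in litter 2. Immune markers summed to 31.9 and 22.9 CPM in litter 4 and to 4.42 and 4.43 in litter 3. The R2b rise of Tapbp was 0.95 and that of B2m 0.88 without litter 4. Between con and R2b, 0 of 4 immune markers tested at E9.25+24h and 0 of 2 at E9.75+12h were called by edgeR or DESeq2, 0 at an unadjusted p under 0.05 in edgeR. Some other markers were called between con and R2b by edgeR at E9.75+12h, where 20.0% of all genes were. Of 10 mesenchyme markers 2 were called: Lum and Dcn rose by 1.15 and 1.03 (edgeR FDR 0.0042 and 0.0085). Of 11 endothelium markers tested 1 was called: Tek fell by 1.41 (edgeR FDR 0.016). These counts were near or below the share of all genes. Among 10 otic markers 5 were called, of which 4 rose and 1 fell (edgeR). All 9 blood markers tested there had a lower mean in R2b, with a median log2 fold change of -1.54. No blood marker was called by edgeR or DESeq2, and 4 had an unadjusted p under 0.05 in edgeR. They summed to 819, 22.4 and 303 CPM in the con pools of litters 1 to 3 and to 95.2, 118 and 123 CPM in the R2b pools, so the groups overlapped. At E9.25+24h 2 of 10 otic markers rose and 1 fell, where 9.09% of all genes rose and 6.5% fell. No mesenchyme, endothelium or blood marker was called there by edgeR or DESeq2 (0 at an unadjusted p under 0.05 in edgeR). With the litter block 3, 5 and 2 of the 10, 12 and 10 with a row were called, where 39.4% of all genes were. The part of these cells in the class I results was not tested.

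Strain background can be seen only through genes that are known to differ between inbred strains, of which Glo1, Wdfy1 and Nnt were measured. Glo1, a glyoxalase gene whose locus is duplicated in some strains, lies 3.37 Mb before H2-K1 on chromosome 17. At E9.25+24h its litter effect was called (edgeR FDR 6.53e-04). Litter 3 had 125 CPM in con and 126 in R2b, whereas litter 1 had 85.5 and 82.7, litter 4 had 84.7 and 85.3, and litter 2 had 94.9 and 116. At E10.25+24h litters 1 to 4 had 73.1, 140.4, 115 and 102 CPM in con and 79.4, 135, 132 and 91.8 in R2b, a litter effect with an unadjusted p of 5.46e-04 and an FDR of 0.21 in edgeR. The R2b log2 fold change of Glo1 at E9.25+24h was 0.08 (SE 0.17, edgeR FDR 0.80). Wdfy1, on chromosome 1, was called for the genotype at E9.75+12h and for the litter at E9.25+24h, both by edgeR. At E9.75+12h its con pools had 46.5, 38.3 and 44.1 CPM and its R2b pools 54.1, 60.2 and 51.1 CPM, a rise of 0.38 on the log2 scale (SE 0.12, edgeR FDR 0.038) that was not called with the litter block (edgeR FDR 0.11) or without any single litter (0.17, 0.13 and 0.086 without litters 1, 2 and 3). Its R2b pool was higher in 10 of 11 litters, the exception being litter 1 of E10.25+24h (-0.25). Its litter effect at E9.25+24h had an edgeR FDR of 0.042, with a genotype FDR of 0.088. Nnt passed none of these tests in edgeR, with a litter FDR of 0.072 at E9.25+24h. H2-Bl, a class I heavy chain pseudogene near H2-T23, likewise went with the litter at E9.25+24h (edgeR FDR 2.24e-04). It had 12.2 and 12.4 CPM in litter 3, 6.16 and 6.93 in litter 1, 6.06 and 5.19 in litter 2, and 3.33 and 4.06 in litter 4. Litter 3, the highest for Glo1 and H2-Bl, was the lowest for H2-D1 in both pools and neither highest nor lowest for H2-T23. At E9.75+12h, where edgeR called a litter effect for 0.0% of all genes, neither gene went with the litter. Glo1 had 75.9, 75.7 and 93.5 CPM in con and 53.8, 80.1 and 57.9 in R2b of litters 1 to 3. H2-Bl had 3.61, 6.89 and 5.79 CPM in con and 8.66, 3.94 and 6.23 in R2b. Litter means of H2-Bl spanned 0.20 log2 CPM there, against a mean absolute pool difference of 0.71. Whether litters differ in strain or allele was not tested.

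**Figure D3:**
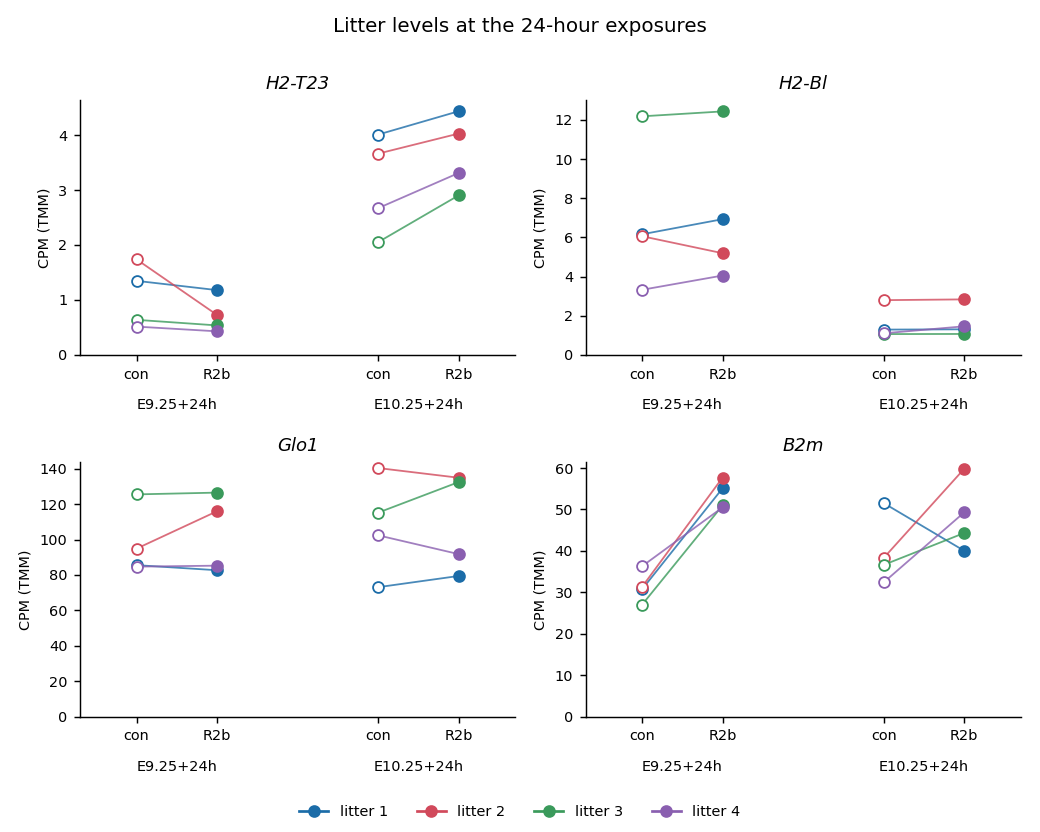
Levels in CPM (vertical axis) of H2-T23, H2-Bl, Glo1 and B2m in the litters of both 24-hour exposures, open for con and filled for R2b. H2-Bl holds litter 3 of E9.25+24h apart in both pools and Glo1 in the con pools only, where the R2b pool of litter 2 (116 CPM) lies near that of litter 3 (126 CPM), whereas B2m separates the pools by genotype at E9.25+24h.

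Further genes of the H2-T cluster, H2-T22 and H2-T10, were singled out after their values were seen. At E10.25+24h litter 2 had 7.83 and 5.77 CPM of H2-T22, while the other pools had 2.25 to 4.27. The same litter had 0.153 and 0.183 CPM of H2-T10, while the other pools had 0.646 to 1.74. Neither litter effect was called by edgeR (FDR 0.28 and 0.34). The members' own sequences overlap with their relatives: of the 50-base stretches in their transcripts, 12.8% for H2-D1, 9.63% for H2-K1 and 13.6% for H2-T23 also occur in other genes, against 0.0% for B2m, 0.442% for Tap1 and 2.87% for Tapbp. How shared reads were counted is not given in the sources used here, so heavy chain counts carry that uncertainty.

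The counts of calls in the gene lists that follow stand against these shares of all genes: 10.20% higher and 9.78% lower after the 12-hour exposure, 9.09% and 6.5% at E9.25+24h, and, with the litter block, 11.4% and 39.4% called. Among other genes of peptide loading, 1 of 9 was called at E9.75+12h: Psme3, a proteasome activator subunit, fell by 0.36 on the log2 scale (edgeR FDR 0.033), a call lost with the litter block. At E9.25+24h 4 of 9 rose (9.09% of all genes) and 0 fell, 7 being called with the litter block (39.4%). Tapbpl, a tapasin-related gene, rose by 0.75 (SE 0.15, edgeR FDR 0.013), with con pools at 2.58 to 3.30 CPM and R2b pools at 4.29 to 5.39. Erap1, which trims peptides in the endoplasmic reticulum, rose by 0.68 (edgeR FDR 0.040), and smaller rises were measured for the proteasome activator gene Psme1 (0.29, FDR 0.024) and the chaperone gene Calr (0.21, FDR 0.037). The median over this list was 0.04 and 0.21 in that order. Of the other class I heavy chains, 1 of 12 rose at E9.75+12h, the MAIT cell ligand gene Mr1 by 1.48 (edgeR FDR 0.013), and 1 of 14 at E9.25+24h, Cd1d1 by 0.63 (edgeR FDR 0.040), with 0 lower in each. These 2 counts are near the shares of all genes that rose (10.20% and 9.09%). With the litter block 6 of these were called at E9.25+24h (39.4% of all genes).

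The class II genes, which serve peptides taken up from outside, had median log2 fold changes of 1.51 and 1.24 at these exposures. At E9.75+12h 3 of 6 rose and 0 fell, and at E9.25+24h 4 of 5 rose and 0 fell. H2-Oa, a subunit of H2-O, a modulator of class II loading, had 3.76, 2.50 and 3.48 CPM in the con pools of E9.75+12h and 9.71, 8.99 and 11.8 CPM in its R2b pools. At E9.25+24h its con pools had 3.75, 3.63, 2.82 and 2.53 CPM and its R2b pools 13.7, 11.8, 9.48 and 6.58 CPM. The groups were apart at both, with log2 fold changes of 1.67 (SE 0.22, edgeR FDR 8.86e-04) and 1.71 (SE 0.24, edgeR FDR 0.0038). Cd74, the invariant chain, rose by 1.87 and 1.28 (edgeR FDR 0.0068 and 0.036). H2-DMb1, a subunit of the peptide exchanger, rose by 1.35 and 1.21 (edgeR FDR 0.018 and 0.027), the first with an FDR of 0.060 under the litter block. The beta chain gene H2-Ab1 rose by 1.24 at E9.25+24h (edgeR FDR 0.014) and had a log2 fold change of 0.53 with an FDR of 0.33 at E9.75+12h. Class II genes had at most 13.7 CPM among those named, the highest value of H2-Oa. The others were lower, with 6 to 48 counts per library for Cd74, 11 to 97 for H2-DMb1 and 18 to 98 for H2-Ab1. Their fold changes are limited by depth. At E10.25+24h H2-Oa had 9.87 CPM in the library labelled con of litter 1 and 5.81 CPM in the library labelled R2b, while R2b was higher in litters 2 to 4 (11.5, 6.49 and 9.28 against 4.83, 5.17 and 5.61).

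**Figure D4:**
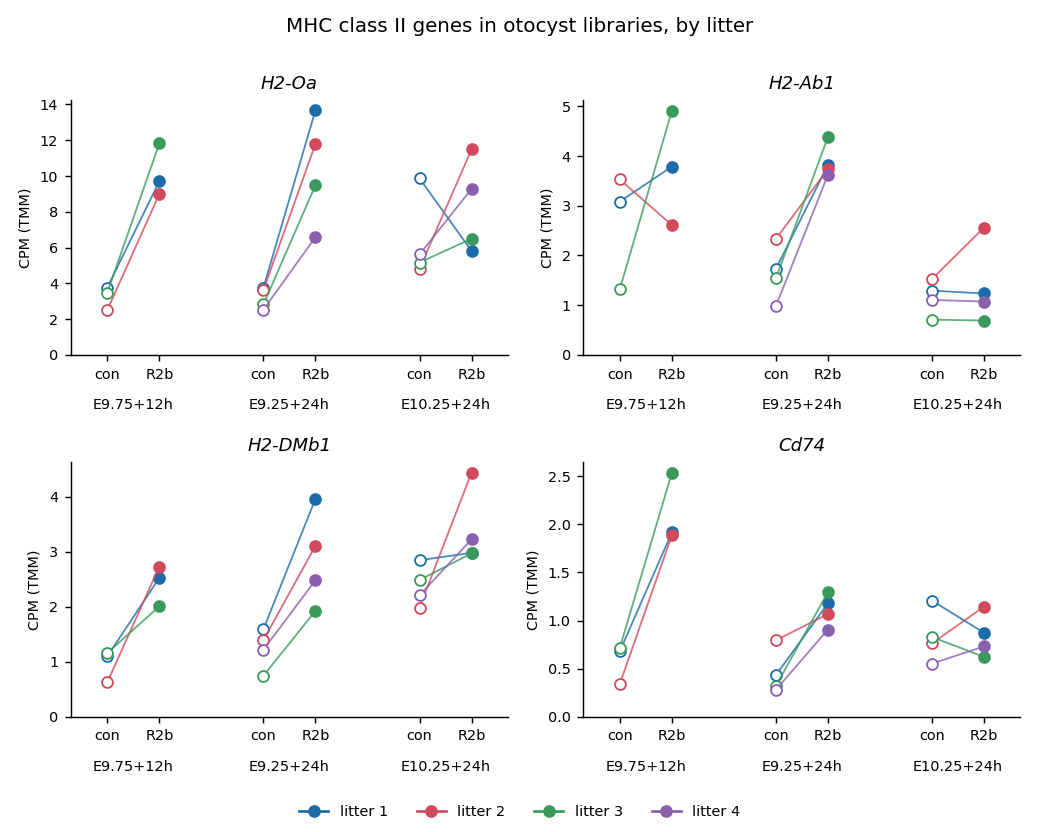
Levels in CPM (vertical axis) of 4 class II genes in 22 libraries, open for con and filled for R2b pools, joined within a litter. H2-Oa separates con and R2b at E9.75+12h and E9.25+24h, and its line falls in litter 1 of E10.25+24h.

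Genes of factors known to act on class I promoters and of interferon signalling were counted next. Of 12 transcription factor genes, 2 rose and 2 fell at E9.75+12h, and 0 rose and 2 fell at E9.25+24h, where 20.0% and 15.6% of all genes were called. Creb1 fell at both (-0.40 and -0.19, edgeR FDR 0.040 and 0.028), Atf1 fell by 0.39 at E9.75+12h (edgeR FDR 0.037), and Nfyb fell by 0.15 at E9.25+24h (edgeR FDR 0.031). Rfxank, a subunit of the RFX complex, rose by 0.42 at E9.75+12h (edgeR FDR 0.044). The 4 calls at E9.75+12h were lost with the litter block. In the interferon pathway 2 of 15 genes rose at E9.75+12h, and 5 of 16 at E9.25+24h, with 0 lower in each, where 10.20% and 9.09% of all genes rose. With the litter block 9 were called at E9.25+24h (39.4% of all genes). Tyk2, a kinase of the type I interferon receptor, rose at both (0.60 and 0.38, edgeR FDR 0.011 and 0.012). Jak2, a kinase of the interferon gamma receptor, rose by 0.40 at E9.25+24h (edgeR FDR 0.0058), as did the interferon-induced gene Ifitm1 by 1.09 (edgeR FDR 0.015). Ifih1, an RNA sensor, rose by 0.88 at E9.75+12h (edgeR FDR 0.048), a call lost with the litter block. The median of the pathway was 0.21 and 0.35.

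Neighbouring genes in the MHC region were called in both directions. From Ring1 to Mog (chr17:34020792-37023398), which starts after Tapbp and H2-K1, 7 of 102 non-member genes rose and 5 fell at E9.75+12h, and 12 of 101 rose and 9 fell at E9.25+24h, with medians of 0.13 and -0.02. Among all genes 20.0% and 15.6% were called. With the litter block 6 and 48 were called (11.4% and 39.4% of all genes). Col11a2, a fibrillar collagen gene, rose at E9.25+24h by 1.31 (edgeR FDR 0.0018), and Ddr1, a collagen receptor, rose at E9.75+12h by 0.69 (edgeR FDR 0.0052). Over 22 libraries, after the mean of each exposure was removed, the genes most like the mean of H2-D1 and H2-K1 were Egfl8 (Pearson r 0.83), Tmco3 (0.82), Fam131a (0.81), Arhgap44 (0.80) and Dennd2a (0.79), among 12807 genes. Egfl8 lies in the MHC region. Tapbp had an r of 0.59 and rank 905 there, B2m 0.57 and rank 1047, and Tap1 0.39. Between members the highest r was that of B2m and Tapbp (0.85), whereas H2-D1 and H2-K1 had 0.48. These correlations are descriptions: the libraries share exposures, litters and the genotype difference. They also include the E10.25+24h libraries, from whose values H2-D1 and H2-K1 were chosen.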

How the data were processed

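Stranded poly(A) RNA was sequenced from pooled otocyst epithelia, per the labels' protocols. The authors deposited raw read counts per Ensembl gene. The submitters' processing notes name Novoalign 2.08.03 and mm10, and the counter, its strand setting and the gene filter are not given in the sources used here. Of 24 samples, 22 had a column, and 2 columns that name no sample were not used. Symbols and positions came from GENCODE M21. Pools of a litter come from the same female, per the labels; their deviations from group means correlated at 0.42 to 0.77 in the litters of E9.25+24h, -0.10 to 0.39 in those of E10.25+24h, and -0.26 to -0.11 for E9.75+12h, whose pairing rests on the labels alone. Counts were tested with edgeR 4.0.16 under R 4.3.3 (filterByExpr, TMM, quasi-likelihood F test), each exposure alone, with FDR over all genes and a threshold of 0.05. CPM used TMM factors over all 22 libraries, and log2 CPM a prior count of 2. Differences of effects and con levels were contrasts of all group means. Steps were tested on simulated data. Alternatives were DESeq2 1.42.0, its size factors, no filter, the litter block, a joint fit, and leaving out litters or libraries. Named beside the members were transgene readouts, at most 3 called genes per list and exposure by smallest FDR, and the 5 genes most like the mean of H2-D1 and H2-K1 (mean log2 CPM of at least 1). The members and lists were chosen with earlier results of these data known. Counts carry no molecular identifiers.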

Additional observations from a re-analysis of the deposited data

Results flagged for a closer look

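Among 24 combinations of a member and a group of 4 libraries, 2 held a library far from the others by the test of the gap to its neighbour, where chance gives about 1 in 20. The con library of litter 1 at E10.25+24h had 52.2 CPM of Tapbp, against 23.3 to 25.9 CPM in the other con libraries, and it is the library labelled con that had 679 CPM of Ighg1. The con library of litter 2 at E9.25+24h had 2.73 CPM of Tap1, against 1.54 to 1.68 CPM in the other con libraries.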

How the results depend on the processing

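At E9.75+12h 1 member was called, 2 with DESeq2 (B2m added) and 2 with all libraries in one fit (Tap1 added). Leaving out libraries or litters gave 0 to 2, the 0 without litter 1. At E9.25+24h 2 members were called, and 2 to 4 when libraries or litters were left out, the 4 in the litter block without litter 4. At E10.25+24h 5 of 6 members were above con, 4 to 6 when libraries were left out. The litter call of H2-T23 was lost with DESeq2 (0 members). The count of 0 for the difference of effects and the 2 con-level calls held under every alternative run. With the litter block the call of H2-K1 at E9.25+24h was gained, and 9 calls of other named genes at E9.75+12h were lost. The wider kB pattern, chosen after seeing the data, raised the members with a kB match from 2 to 3. The other ISRE form, chosen likewise, is a different pattern rather than a wider one. It matched B2m and H2-T23 but not H2-D1 or H2-K1, so members with either ISRE form went from 2 to 4. Reversed directions, of results that passed no test, came from leaving out litters or libraries: the con level of E9.25+24h against E9.75+12h became 0.0038, 0.0223 and 0.003 for Tapbp (without litter 1 or 2 of E9.75+12h, or 3 of E9.25+24h), 0.0695, 0.0006 and 0.0233 for Tap1 (without litter 3 of E9.75+12h, or 1 or 4 of E9.25+24h), -0.056, -0.0064 and -0.212 for H2-T23 (without litter 1 of either, or 2 of E9.25+24h), and 0.047 and 0.0252 for H2-K1 (without litter 2 or 4 of E9.25+24h, range -0.38 to 0.39). The difference of effects for H2-K1 ranged from -0.52 to 0.51, and the R2b effect on H2-T23 at E9.75+12h was -0.1758 without litter 1, with a range from -0.25 to 0.85. Over all genes, calls at E9.75+12h fell from 2973 to 434 without litter 1 and rose to 4065 without litter 2 (1769 without litter 3), and at E9.25+24h from 2335 to 322 without litter 1 and 460 without litter 2. H2-T23 and Tap1, with at most 122 counts per library, are limited by depth.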
